A study of Homo sapiens with 9 samples.

Results

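The nuclear pore genes besides NUP214 were examined for contacts of SF3B1 with their RNA. Binding sites were taken as members when their centre lay inside the RefSeq span of 1 of 31 listed nuclear pore genes, on the strand of that gene. The genes were listed by function, and NUP214 was left out because it lies in an amplified segment of the genome of these cells. This gave 1046 of the 96852 sites in the list, or 1.08%.

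The series used iCLIP in K562, a long-established line of human leukaemia cells. Ultraviolet light crosslinks a protein to the RNA it touches, the protein is immunoprecipitated, and the crosslinked nucleotides are read by sequencing. SF3B1 was immunoprecipitated from 3 samples of K562 with unmutated SF3B1 (wt/wt) and from 2 samples heterozygous for the K700E substitution (K700E/wt), both lines from Horizon Discovery, and U2AF2 from 4 samples of unmutated K562 from ATCC. All 9 samples had been crosslinked with ultraviolet light at 400 mJ/cm2. The single table analysed was the merged site list deposited with the 3 SF3B1 samples of unmutated cells, and the other 6 samples were not analysed here.

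SF3B1 is a subunit of the U2 small nuclear ribonucleoprotein, which pairs with the branch point of an intron shortly before its 3′ end. Its contacts are therefore known mainly from introns of unspliced RNA. The nuclear pore is a ring of many proteins, the nucleoporins, set in the nuclear envelope, and it carries proteins and RNA between nucleus and cytoplasm. Its outer rings are built from the Y complex, its inner ring and central channel form the transport passage, membrane nucleoporins anchor it, and filaments on the nuclear side (the basket) and on the cytoplasmic side handle cargo.

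Every site in the list was 5 nt wide. The list gives positions only, so neither the depth of the samples nor a spread between replicates can be stated, and no test between conditions was possible. The header of the list says that sites were reproducible by all replicates of either condition, while the labels name unmutated cells, so no site is assigned to a genotype here. A site shows that SF3B1 was reproducibly crosslinked at a position. The number of sites also depends on how much of the RNA was present, which was not measured. The labels describe the tissue as derived from a lymphoid leukaemia, whereas K562 is generally known as a chronic myeloid leukaemia line with erythroid and megakaryocytic features. Of 10 erythroid and megakaryocytic genes, 6 held a site, with 121 sites in TFRC, 17 in TAL1 and 6 in GATA1, and KLF1, HBG1 and HBG2 were among those with 0. Of 10 lymphoid genes, among them PAX5 and CD3E, 0 held a site.

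SF3B1 sites were found in nearly all nuclear pore genes. At least 1 site lay in 30 of the 31 genes, and at least 10 sites lay in 26. Among all 20050 protein-coding genes, 37.9% held at least 1 site on their strand and 14.8% held at least 10. The nuclear pore genes are longer than most, so the same shares were taken over the 10076 other protein-coding genes with spans between those of AAAS, the shortest of the listed genes, and NUP98, the longest apart from RANBP2. There, 48.3% held at least 1 site and 20.5% at least 10. These genes were still shorter, with a median span of 37.7 kb against 58.8 kb in the nuclear pore genes, and lengths were not matched. The median was 22 sites over the 31 genes. Among genes with a site it was 23.5 for the nuclear pore and 7 for all protein-coding genes. Expression in K562 was not measured, so its part in these differences was not tested. The gene list was chosen with earlier results of these data known, so the comparison is only descriptive.

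The genes differed widely among themselves. TPR had the most sites, 99, followed by AHCTF1 and NUP205 with 89 each, NUP210 with 86, NUP153 with 74 and NUP98 with 63. These 6 genes held 47.8% of the sites. At the other end, NUP35 and SEC13 had 7 sites, NUP50 had 6, GLE1 had 4 and NUP62 had 0. Ranked among all protein-coding genes by number of sites, TPR stood at place 38, AHCTF1 and NUP205 shared place 53, and NUP210 stood at place 60.

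**Figure D1:**
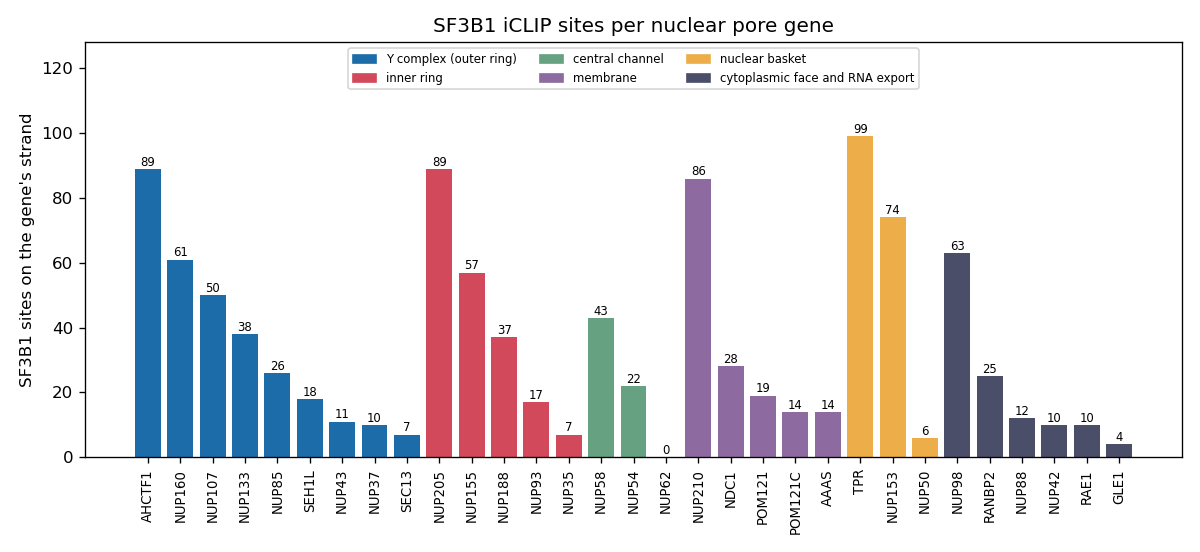
Number of SF3B1 sites on the gene's strand (vertical axis) in each of the 31 nuclear pore genes, coloured and ordered by their place in the pore. Each bar is 1 count from the merged list, so it has no error bar. TPR reaches 99, while NUP62 has 0, and every group with more than 3 genes spans a wide range.

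Longer genes had more sites. Across the 31 genes, Spearman's rho between span and number of sites was 0.71, and it was 0.74 without RANBP2. Across all 7608 protein-coding genes with a site it was 0.23. These are descriptions over genes that share the same libraries, and genes are not independent replicates. Relative to length, the median over genes with a site was 0.52 sites per kb in the nuclear pore genes and 0.20 sites per kb over all protein-coding genes. Of the 31 genes, 26 lay above 0.20 sites per kb. As a median over genes with a site, that value has as many such genes above it as below. Over the other protein-coding genes with a site in the length range used above, the median was 0.18 sites per kb. TPR was again highest, with 1.56 sites per kb. AAAS, the shortest of the genes at 14.2 kb, came next with 0.99 sites per kb from only 14 sites. NUP205 had 0.98 and AHCTF1 0.96 sites per kb. Among the 30 genes with a site, the lowest values were 0.14 sites per kb in NUP93, 0.11 in GLE1 and 0.022 in RANBP2, whose RefSeq span is unusually long.

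**Figure D2:**
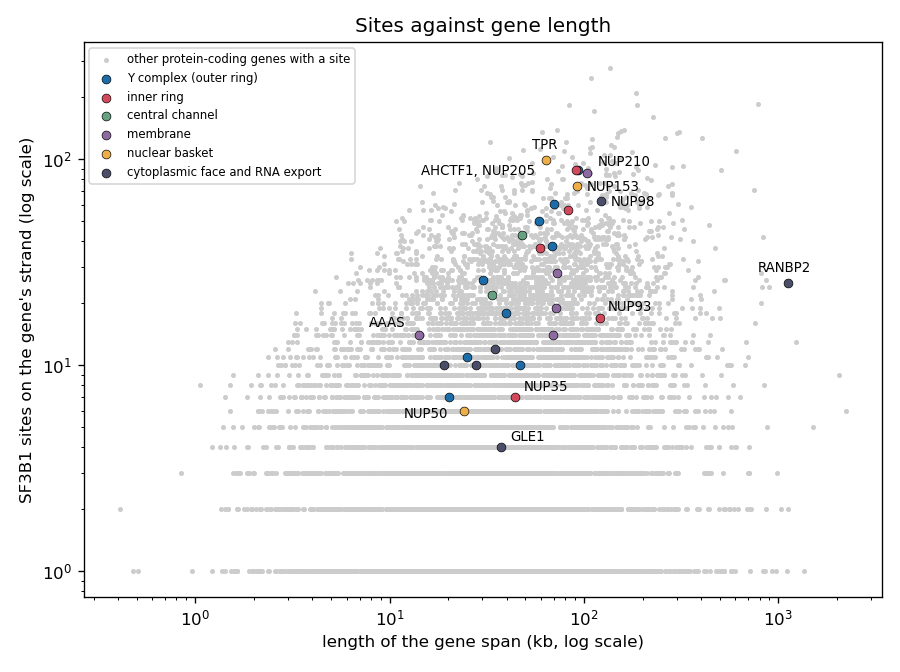
Number of sites on the gene's strand against the length of the gene span in kb, both on log scales, for the 30 nuclear pore genes with a site (coloured) and the other protein-coding genes with a site (grey). TPR lies high for its 63.6 kb, NUP93 lies low for its 120 kb, and RANBP2 stands apart because of its span of 1120 kb. The points of AHCTF1 and NUP205, both with 89 sites, nearly coincide.

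The Y complex forms the outer rings of the pore, and all 9 of its genes listed here held sites, 310 in all, with a median of 26 per gene. AHCTF1 encodes ELYS, which brings the Y complex to chromatin when the nucleus re-forms after mitosis. Its 89 sites lay on the minus strand of its span chr1:246839098-246931948. They were gathered in the middle of the gene, with 31 sites between 20% and 40% of its length and 39 between 40% and 60%, and 33 of them fell within 10 kb. The first site downstream of the gene start lay 13512 nt into the gene.

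NUP160, NUP107 and NUP133 encode large scaffold subunits of the Y complex. NUP160 had 61 sites on the minus strand of chr11:47778118-47848544, and 26 of these fell within 10 kb, between positions 47812236 and 47822214. The stretch next to that group, towards the gene start, held no site for 14829 nt. NUP107 had 50 sites on the plus strand of chr12:68686978-68745809, of which 20 lay between 40% and 60% of the gene and 9 in its first 10%. NUP133 had 38 sites on the minus strand of chr1:229440259-229508341, with 13 of them in the first 20% of the gene and none in the last 10%. The 3 genes have similar spans, 70.4, 58.8 and 68.1 kb, yet their sites per kb were 0.87, 0.85 and 0.56.

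The smaller subunits had fewer sites. NUP85 had 26 sites over 30.1 kb, which is 0.86 per kb and thus as dense as NUP160 and NUP107. SEH1L had 18 sites, NUP43 had 11, NUP37 had 10 and SEC13 had 7. SEH1L and SEC13 encode small propeller proteins that also serve in another complex, SEC13 being part of the COPII vesicle coat. In NUP37, 6 of the 10 sites lay near the 3′ end, between positions 102074940 and 102076903 of chromosome 12, and in NUP43, 10 of 11 lay within 10 kb. In SEC13, 5 of the 7 sites lay between positions 10305173 and 10305734 of chromosome 3, and the other two lay 12268 nt or more upstream.

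The inner ring holds the scaffold around the transport channel. Its 5 genes held 207 sites. NUP205 and NUP188 encode related large solenoid proteins, each of which binds NUP93, the organiser of the inner ring. NUP205 had 89 sites on the plus strand of chr7:135557917-135648753, and NUP188 had 37 on the plus strand of chr9:128947699-129007096. NUP205 had no site in its first 18295 nt, and its sites then ran to within 366 nt of the gene end. In NUP188, 12 of the 37 sites also lay in LOC101929314, a long non-coding RNA gene annotated on the other strand.

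NUP155, which links the ring to the membrane, had 57 sites on the minus strand of chr5:37288137-37371106, 21 of them within 10 kb between positions 37325871 and 37331998. NUP93 had 17 sites over 120 kb of chr16:56730129-56850286, and 14 of these lay in the last 20% of the gene. A stretch of 60122 nt without a site separated its first site from its second. That first site, at position 56758485, lay upstream of both inner start sites that RefSeq lists for NUP93, at positions 56781829 and 56783456. NUP35, which binds NUP93 and NUP155, had 7 sites, 3 of them between positions 183130590 and 183133651 of chromosome 2 and the other 4 between positions 183157419 and 183158270.

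The central channel is filled by flexible proteins rich in phenylalanine and glycine (FG) repeats, encoded by NUP62, NUP58 and NUP54. NUP58 had 43 sites on the plus strand of chr13:25301625-25349800, or 0.89 per kb. It had 7 sites in its first 10%, the first of them 1427 nt from the gene start, and none in its last 20%. NUP54 had 22 sites over 33.7 kb, or 0.65 per kb. NUP62, on the minus strand of chr19:49906825-49929504, was the only nuclear pore gene of the list with 0 sites on its strand. A single site on the plus strand lay in its span, at position 49929207, and this position also lies in ATF5, a gene on the plus strand. The list holds no read numbers, so a count of 0 does not distinguish absent contacts from contacts too rare to be reproducible.

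The membrane group held 161 sites in 5 genes. NUP210, a glycoprotein that spans the nuclear envelope, had 86 sites on the minus strand of chr3:13316235-13420322. No site fell in the first 31879 nt, the longest such distance among the 30 genes. By contrast 38 sites lay in the last 20% and 26 in the last 10% of the gene. NDC1, a membrane protein that anchors the pore, had 28 sites over 72.8 kb, 16 of them between 40% and 60% of the gene and none in its last 20%. AAAS encodes aladin, which NDC1 recruits and which is mutated in triple A syndrome. Its 14 sites formed 8 clusters, with 4 sites within 62 nt near the 5′ end, between centres 53320705 and 53320766, and 7 sites in the last 20% of the gene.

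POM121 and POM121C are near-identical genes for a membrane nucleoporin, so reads from the parts they share may be placed in either copy or dropped, and their counts are uncertain. POM121 had 19 sites on the plus strand of chr7:72879357-72951459, and POM121C had 14 on the minus strand of chr7:75416786-75486299. In both genes the site nearest the start lay more than 11 kb into the gene, 11303 nt in POM121 and 11576 nt in POM121C. After it came 22906 nt without a site in POM121, following a group of 3 sites, and 33799 nt in POM121C. Most of the other sites of POM121C, 11 of 14, lay in the last 20% of the gene. RefSeq lists a second start for POM121 at position 72925095, and 6 of its 19 sites lay upstream of it. A further 8 sites on the minus strand lay in the POM121 span, between positions 72948611 and 72950248. They also lie in NSUN5P2, a transcribed pseudogene annotated over the end of POM121, and were not counted for POM121. Among the other genes and pseudogenes named after POM121, POM121L6P on chromosome 6 held 3 sites on the minus strand, and the rest, POM121B among them, held 0.

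The nuclear basket reaches into the nucleus, where it takes part in the docking and checking of export-ready messenger RNA. Its 3 genes held 179 sites. TPR encodes the long coiled-coil protein that forms the basket filaments. Its 99 sites lay on the minus strand of chr1:186311652-186375253, and 49 of them lay between 20% and 40% of the gene. The densest 10 kb held 42 sites, between positions 186355402 and 186363470, which was the highest number in any 10 kb of the 31 genes. There was no stretch longer than 4317 nt between neighbouring sites of TPR. A single site of TPR also fell in the span of PRG4, a gene on the plus strand that overlaps the 3′ end of TPR. NUP153, a mobile FG nucleoporin that tethers the basket, had 74 sites on the minus strand of chr6:17615037-17706925. Of these, 30 lay within 10 kb between positions 17660965 and 17669772. No site fell in the first 18248 nt of NUP153. NUP50, a partner of NUP153 that helps to release imported cargo, had 6 sites over 24.1 kb, none with a partner 25 to 45 nt away, and 2 of them also lay in LOC105373064, a long non-coding RNA gene.

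On the cytoplasmic side and among the nucleoporins of RNA export, 6 genes held 124 sites. NUP98 encodes a precursor that is cut into the FG nucleoporin NUP98 and the Y complex subunit NUP96, and the gene is a known fusion partner in leukaemia. It had 63 sites on the minus strand of chr11:3675010-3797554, and 29 of these lay between 60% and 80% of the gene. The densest 10 kb of this span of 123 kb held 15 of them, or 23.8%. RAE1, which binds NUP98 in RNA export, had 10 sites, and NUP42 and GLE1, which activate the export helicase DDX19, had 10 and 4. In NUP42, 9 of the 10 sites lay within 10 kb, and in GLE1, 3 of the 4 lay between positions 128523233 and 128523268 of chromosome 9, while the last also lay in LOC101929270, a long non-coding RNA gene on the other strand. NUP88 had 12 sites, the first of them 389 nt from the gene start, the shortest such distance among the 30 genes.

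RANBP2 encodes the large protein of the cytoplasmic filaments, which binds Ran and acts as a SUMO ligase. Its RefSeq span, chr2:108719482-109842301, runs over several other genes, among them CCDC138 on the same strand. Of the 25 sites in this span, 17 lay before the start of CCDC138, between positions 108748961 and 108783578, 8 lay inside CCDC138, and 0 lay beyond it. Counted only up to CCDC138, RANBP2 had 0.25 sites per kb. The 8 sites in CCDC138 cannot be assigned to either gene. The RGPD genes are copies of most of RANBP2, so reads that fit several copies make the count uncertain. RGPD1, RGPD2, RGPD3, RGPD4, RGPD5, RGPD6 and RGPD8 held 0 sites.

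**Figure D3:**
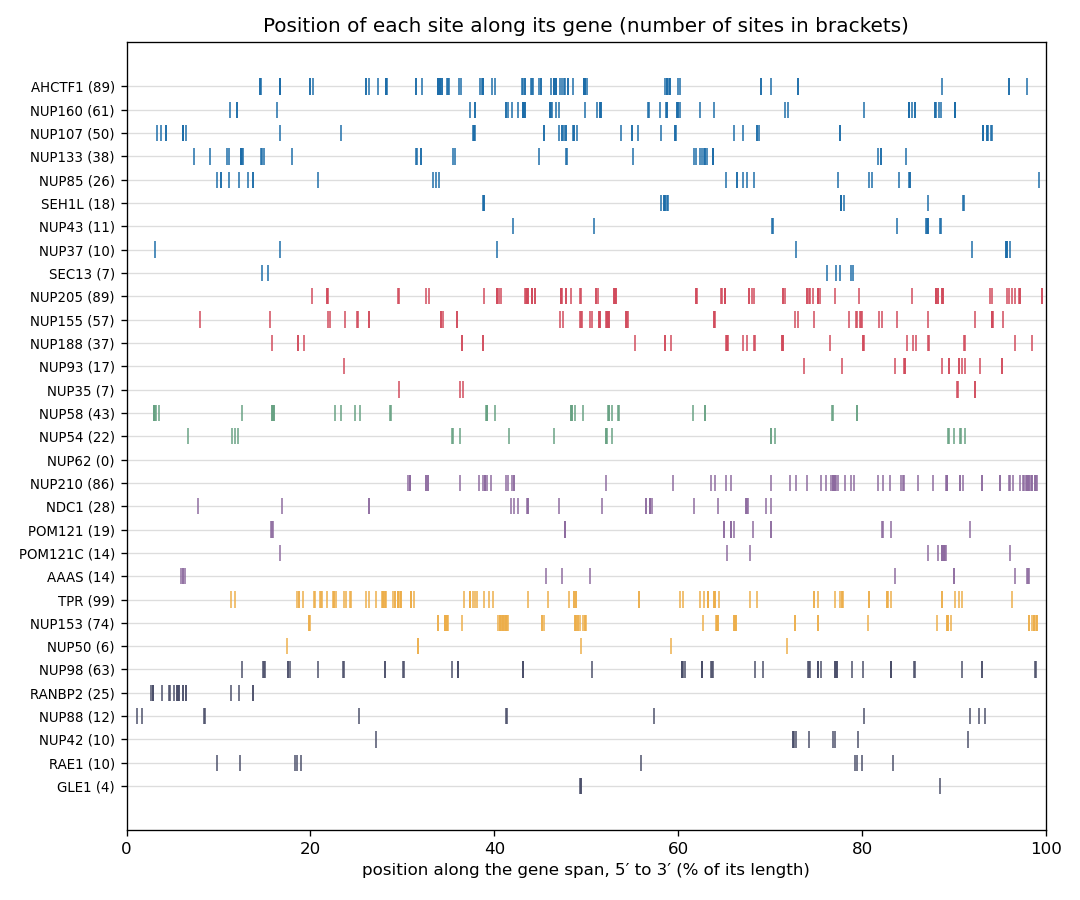
Position of each of the 1046 sites along its gene, from the 5′ end (0%) to the 3′ end (100%) of the RefSeq span on the horizontal axis, with 1 line per gene and its number of sites in brackets. Colours mark the place in the pore as in the plot of sites per gene. The sites of TPR and AHCTF1 crowd into the middle and left of the line, those of NUP93 and POM121C lie near the 3′ end, and those of RANBP2 all lie in the first 20% of a span that includes other genes.

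Sites were scarcer at gene starts than at gene ends, here as over all protein-coding genes. In 28 of the 30 genes the first site lay more than 1 kb from the start of the span, and the median distance was 7.58 kb. No such count is given for all protein-coding genes. From the last site to the gene end the median was 3.19 kb. The first 10% of the gene held 53 sites and the last 10% held 114, a ratio of 2.15, when the 29 genes with 5 or more sites were summed. Of the 53, 21 belonged to RANBP2, whose span is not that of its usual transcript. Without RANBP2 the counts were 32 and 114, a ratio of 3.56, and with RANBP2 ended before CCDC138 the ratio was 3.84. Over all protein-coding genes with at least 5 sites it was 2.99. The first 10% held 5.1% of the sites in the nuclear pore genes, 3.1% without RANBP2, and 4.5% over all protein-coding genes. For the last 10% these shares were 10.9%, 11.2% and 13.4%. The last 10% held more sites than the first 10% in 18 of the 29 nuclear pore genes and fewer in 7. Over all 4630 protein-coding genes with at least 5 sites, these numbers were 2312 and 743. RefSeq promoter windows, from 250 nt before to 50 nt after each listed start, were found for 28 of the genes, and 0 of the sites of these genes lay in the windows of their own gene. Only sites inside the span were counted, so a window at the start of the span could hold one only in its last 50 nt. A count of 0 in so short a stretch does not show that sites were scarcer there, and no such count is given for all protein-coding genes. AHCTF1, NUP43 and GLE1 had no window.

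At short range, the spacing of sites was close to that over all protein-coding genes. The 1046 sites formed 658 clusters when neighbours at most 60 nt apart were linked, of which 419 were single sites, 136 held 2 sites and 66 held 3. The largest held 6 sites. Clusters averaged 1.59 sites, against 1.57 over all protein-coding genes. A partner 25 to 45 nt away on the same strand was present for 379 sites, or 36.2% (95% Wilson interval 33.4% to 39.2%, counting error only), against 36.5% over all protein-coding genes. Such pairs numbered 246, and pairs in the next span of equal width, 46 to 66 nt, numbered 81, a ratio of 3.04 against 3.59 over all protein-coding genes. The nearer span held more pairs in 25 of the 30 genes. It held fewer in NDC1, with 5 against 7 pairs, and in RAE1, with 0 against 2. The same counts of genes are not given for all protein-coding genes. The commonest distance, after summing over 3 adjacent distances and leaving aside those of 20 nt or less, was 34 nt in the nuclear pore genes and 37 nt over all protein-coding genes.

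The share of sites with such a partner varied between genes. Among the genes with the most sites, it was highest in NUP153, at 51.4%, and lower in AHCTF1 at 43.8%, NUP205 at 41.6%, NUP98 at 36.5%, TPR at 33.3% and NUP210 at 29.1%. In NUP85 it was 11.5% despite a density of sites close to that of NUP160, where it was 42.6%. A cluster that splits into exactly 2 elements, with centres 25 to 45 nt apart and sites within an element at most 12 nt apart, is called a paired footprint here. There were 108 of them among the 658 clusters, in 27 of the genes. AHCTF1 had 12, NUP205 had 11, TPR and NUP153 had 9 each, and NUP160 and NUP98 had 8 each. Over all protein-coding genes there were 10454 among 59919 clusters, a similar share. The number of all genes with a paired footprint is not given. The median spacing was 35 nt in the nuclear pore genes, against 36 nt over all protein-coding genes.

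**Figure D4:**
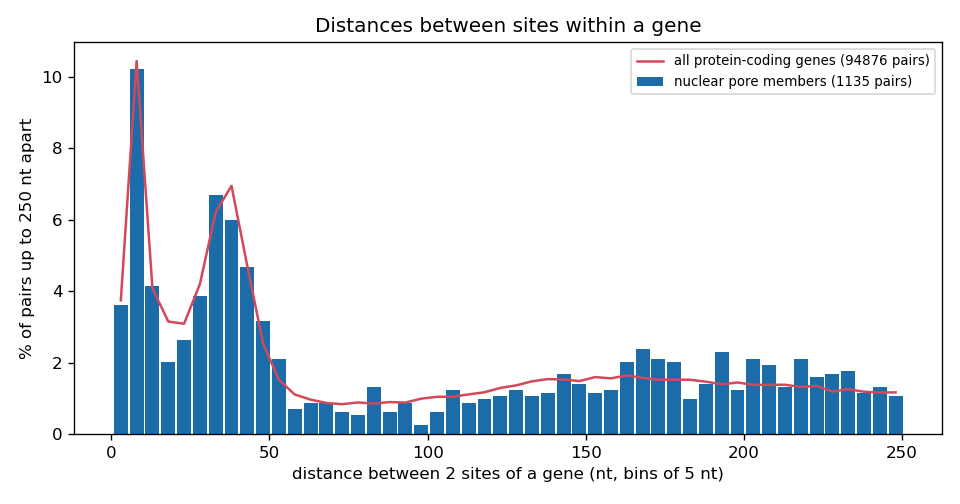
Distances between 2 sites of the same gene and strand, in bins of 5 nt, as a share of all pairs up to 250 nt apart. Bars show the 31 nuclear pore genes and the line all protein-coding genes, both with a peak of closely adjacent sites, a peak between 25 and 45 nt, and a broad rise beyond 100 nt.

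At longer range, 160 pairs of sites were 140 to 180 nt apart and 69 were 60 to 100 nt apart, a ratio of 2.32. Over all protein-coding genes the ratio was 1.72. The longer distance held more pairs in 16 genes and fewer in 6. TPR gave 27 against 4 pairs, NUP205 18 against 2, NUP155 12 against 3 and AHCTF1 11 against 2, while NUP98 gave 1 against 4 and NUP188 0 against 4. Without TPR the ratio was 2.05, and it was not recalculated without NUP205 or NUP155. By place in the pore, it was 3.3 in the inner ring, 2.9 in the nuclear basket and 2.5 in the Y complex. In the central channel, the membrane group and the cytoplasmic and RNA export group it was 1.6, 1.6 and 1.0, each below the value over all protein-coding genes. The arrangement had a direction. Sites without a partner 25 to 45 nt away were counted at 100 to 250 nt from sites that had one. In 190 such combinations the unpaired site lay downstream and in 72 it lay upstream, a ratio of 2.64. A site could enter several combinations, and the number of different sites was not counted. Over all protein-coding genes the ratio was 1.58. It was downstream more often in 15 genes, with 34 against 9 in TPR, 38 against 7 in NUP153 and 19 against 0 in NUP205. It was upstream more often in 5 genes, among them AHCTF1 with 5 against 17 and NUP210 with 14 against 17. Without TPR the ratio was 2.48, and it was not recalculated without NUP153 or NUP205. The excess was uneven over the pore. The ratio was 4.5 in the nuclear basket, 7.5 in the inner ring and 12 in the central channel, the last from 12 against 1. In the Y complex, the membrane group and the cytoplasmic and RNA export group it was 1.6, 1.3 and 1.7, near the value over all protein-coding genes. The numbers of genes going each way, for both ratios, are not given for all protein-coding genes. These windows were known from earlier results on the same list, in which the nuclear pore genes are included, and the differences from all genes were not tested.

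The fullest clusters show the short-range spacing site by site. They are not typical, since 419 of the 658 clusters were single sites. In each of the 6 genes with the most sites, the cluster with the most sites is described, or the first along the gene where several are equal. In AHCTF1, at chr1:246885684-246885745, 6 sites formed 2 elements. In the direction of transcription, the sites of the upstream element lay at 0, 7 and 12 nt and those of the downstream element at 47, 52 and 57 nt. From the last site of the upstream element to the first of the downstream element it was 35 nt. In NUP205, at chr7:135638494-135638546, the 4 sites lay at 0 and 7 nt and at 36 and 48 nt. In NUP98, at chr11:3723464-3723511, 3 sites at 0, 5 and 14 nt were followed by sites at 38 and 43 nt. In TPR, at chr1:186357510-186357555, 3 sites at 0, 7 and 16 nt were followed by a single site at 41 nt. This was 1 of 5 clusters of 4 sites in TPR. Each of these 4 clusters thus had 2 elements.

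The clusters of NUP210 and NUP153 were more extended. In NUP210, at chr3:13379733-13379803, the 5 sites formed 3 elements, at 0 nt, at 28 and 35 nt, and at 59 and 66 nt. In NUP153, at chr6:17668949-17669081, the 6 sites were strung over 133 nt in 5 elements. The first 2 sites lay 5 nt apart, and the steps after them were 38, 42, 28 and 15 nt. Clusters of this kind join several spacings in a row and have more than 2 elements, so they do not count as paired footprints either. NUP58 had the only other cluster of 6 sites, at chr13:25303050-25303147.

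**Figure D5:**
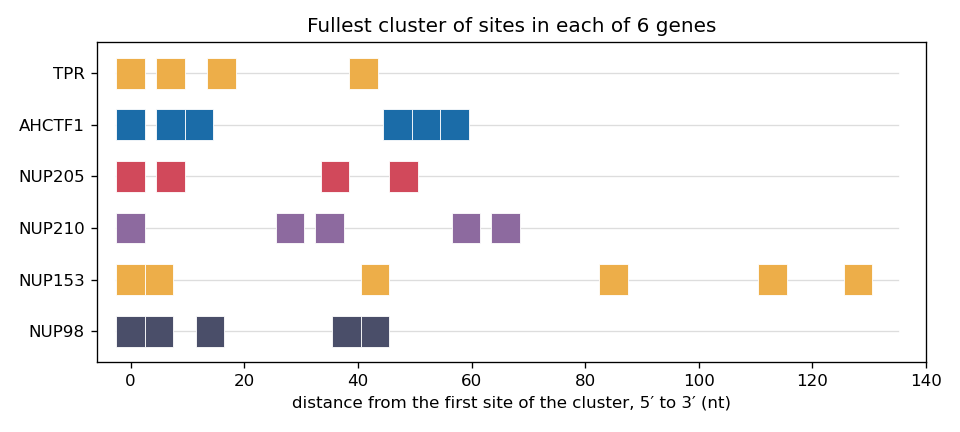
Sites in the fullest cluster of each of the 6 nuclear pore genes with the most sites, drawn to scale as boxes of 5 nt at their distance from the first site, in the direction of transcription. Colours mark the place in the pore as in the plot of sites per gene. In AHCTF1, NUP205, NUP98 and TPR the sites fall into 2 groups, while those of NUP153 extend over 133 nt.

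The soluble factors that work with the pore were examined through a list of 43 genes of nuclear transport. Sites were found in 41 of them, against the 37.9% of all protein-coding genes given above, with 1202 sites in all and a median of 16 per gene. These genes are also longer than most, with a median span of 53.5 kb against 24.1 kb over all protein-coding genes. All 7 exportin genes held sites, with a median of 57. XPO1, the main export receptor for proteins, had 136 sites, more than any of the nuclear pore genes listed here. XPOT, the export receptor for transfer RNA, had 85 sites, and XPO5, which exports precursor microRNAs, had 70. Among the importins and transportins, 16 of 17 genes held sites, with a median of 16 sites. KPNB1, the importin that carries most classical cargo, had 60 sites, and IPO9 had 59. All 6 genes of the Ran cycle held sites, with a median of 9, as did 10 of the 11 genes of messenger RNA export, with a median of 13, and both SUMO protease genes. IPO4 and NXT1 had 0 sites. A partner 25 to 45 nt away was present for 38.2% of the sites of the transport list (95% Wilson interval 35.5% to 41.0%).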

How the data were processed

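The deposited list holds merged binding sites that are reproducible by all replicates of either condition, per the file headers. Its score column was 0 in every row of the deposited list and was not used. Per the submitters' processing notes, the genome builds were GRCh38.p10 and GRCh38.p12, and the tools included STAR 2.7.3a and 2.6.1b, UMI-tools 1.0.0 and bedtools 2.27.1. The site caller is not given in the sources used here. Spans came from a RefSeq gene table of GRCh38.p14, and strands from RefSeq promoter entries. NUP43, AHCTF1 and GLE1 had no entry and took the strand of their sites, as did 1222 of 20050 protein-coding genes in all. Exons and sequence at the sites were not used. Positions are 1-based centres, and a site in several genes was counted for each. Members and lists were chosen with earlier results of these data known. All genes of the list are named, with the 12 richest in sites, those with 0 and those with near-identical copies in full; of the transport list, the 5 richest and those with 0. Wilson intervals cover counting error only. Counting was tested on simulated data. Counts and intervals were computed with pandas 2.3.3, SciPy 1.17.1 and NumPy 2.4.6 under Python 3.11.15.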

Additional observations from a re-analysis of the deposited data

How the results depend on the processing

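Of 55 recalculations of 22 results, 53 stayed within 1.5 times the reported value or, for the share of sites with a partner, within its Wilson interval. The limit of 1.5 times is wider than some differences from all protein-coding genes, such as 2.32 against 1.72 for the longer distances. Staying within it therefore does not show that these differences are stable. A wider distance of 20 to 50 nt raised the share of sites with a partner to 43.6%, since more distances were counted. Ending RANBP2 before CCDC138, an alternative chosen after seeing the data, raised the ratio of sites between gene ends and gene starts to 3.84. Merging sites at most 12 nt apart gave 872 sites, and taking a single site from each numbered region gave 949; all 12 of the richest genes were the same under both. Leaving out sites that lie in another protein-coding gene removed 9 sites. Alternatives that need exons or transcripts were not run. The list merges replicates, so none could be left out. No paired analysis was possible because replicates are merged into 1 set of positions. The depth of the samples is unknown, so low counts of sites may reflect little RNA or few contacts.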
